A study of Mus musculus with 14 samples.

Results

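DNA replication and mitosis genes were followed in bone marrow of mice that did or did not carry the lipase gene Pnpla2 in their bone marrow adipocytes (BMAds), fed ad libitum (AL) or under caloric restriction (CR). The set holds 56 genes, listed by symbol for their known roles: 30 S-phase genes, which prepare and carry out DNA replication, and 26 mitotic genes, which condense and separate the chromosomes. All 56 were found in the deposited counts and passed the filter on low counts, as part of 17671 genes tested of 55401 counted. Levels and medians are given apart for each class, because cells express them at successive points of the same cycle. Many counts are given over all 56.

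RNA came from marrow plugs of the distal tibia, labelled bone marrow adipose tissue, of male mice aged 24 weeks on the strain C57BL6/SJL. There were 4 samples of BMAd-Pnpla2+/+ AL, 4 of BMAd-Pnpla2+/+ CR, 3 of BMAd-Pnpla2-/- AL and 3 of BMAd-Pnpla2-/- CR, each sample being marrow pooled from a pair of mice, so that the spread between replicates is a spread between pools. CR was a 30% restriction for 6 weeks, with food given daily before the dark phase. In this model Osterix-FLPo activates an Adipoq-Cre allele (FAC), and the floxed Pnpla2 alleles are then deleted in BMAds, while a reporter of this Cre also marked some stromal/dendritic cells. The BMAd-Pnpla2+/+ controls were positive for both alleles too and lacked only the floxed Pnpla2 alleles. The Cre cassette, which sits in the Adipoq gene itself, lowers adiponectin protein in all 4 groups.

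A cell that commits to division passes the G1/S transition, at which E2F transcription factors switch on the genes for licensing origins, for the replicative helicase and polymerases and for making deoxynucleotides. Later in the same cycle, MuvB complexes with B-MYB and FOXM1 switch on the genes of mitosis. These include cyclin B and CDK1, the Aurora and Polo kinases, the spindle checkpoint, kinetochore and condensin. Transcripts of both classes are low in resting cells. In bone marrow they are known above all from dividing erythroblasts, neutrophil precursors, B-cell precursors and activated progenitors, and not from mature adipocytes. In bulk RNA, fewer dividing cells and less of these transcripts per cell cannot be told apart.

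The division into S-phase and mitotic genes can also be read in the DNA in front of the genes. Promoter windows from 250 bases before to 50 after the start were available from RefSeq (GRCm38.p6) for 47 of the 56 genes, and both strands were searched for 3 motifs. E2F letters (TTTCCCGC, TTTGGCGC, TTTCGCGC or TTTGCCGC) were found in 13 of 29 windows of 26 S-phase genes (44.8%), in 3 of 21 windows of mitotic genes (14.3%) and in 2.26% of all 32851 windows. The CHR letters (TTTGAA), the element that MuvB complexes bind, were found in 4 of 29 S-phase windows (13.8%), in 16 of 21 mitotic windows (76.2%) and in 17.9% of all windows. The CCAAT box (CCAAT) was in 21 of 29 S-phase and 19 of 21 mitotic windows, and in 37.4% of all. Thus the E2F letters lay mostly before S-phase genes and the CHR letters mostly before mitotic genes. A match is a description of the letters and not a measured binding site. The following sites are shown because they carry this difference, for the 4 genes of each class with the highest mean counts that had the motif before the start. Capitals mark the motif, which reads in the reverse complement where it lies on the opposite strand:
Mcm7 (E2F): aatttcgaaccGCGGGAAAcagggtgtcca
Mcm5 (E2F): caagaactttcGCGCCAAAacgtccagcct
Mcm6 (E2F): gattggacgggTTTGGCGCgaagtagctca
Uhrf1 (E2F): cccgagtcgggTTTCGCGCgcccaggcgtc
Mki67 (CHR): cgccgttttggTTTGAAtcgggcgggct
Top2a (CHR): ctagataaaggTTCAAAtgaaactaggg
Ncapd2 (CHR): agccgttgaggTTTGAAcagggaattgc
Ube2c (CHR): gagggttgcaaTTCAAAcgcgggcggcg

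All 8 are printed 5′ to 3′ on the strand of their gene. The E2F sites lie at chr5:138172030-138172059 for Mcm7 (- strand), chr8:75109349-75109378 for Mcm5 (+ strand), chr1:128359734-128359763 for Mcm6 (- strand) and chr17:56304117-56304146 for Uhrf1 (+ strand). In GENCODE M21 the Mcm5 and Mcm6 sites were in no gene, the Uhrf1 site was in an intron of a longer Uhrf1 transcript, and the 30 bases of the Mcm7 site were in an exon of Mcm7 and of its neighbour Ap4m1. The CHR sites lie at chr7:135716461-135716488 for Mki67 (- strand), chr11:99024196-99024223 for Top2a (- strand), chr6:125191693-125191720 for Ncapd2 (- strand) and chr2:164769889-164769916 for Ube2c (+ strand). Those of Mki67 and Top2a were in no gene, whereas 9 of the 28 bases of the Ncapd2 site and 19 of the 28 of the Ube2c site overlapped an exon of their own gene in that annotation. The RefSeq start lay 18 bases after the last base of the motif in Top2a, 24 in Ube2c, 93 in Mki67 and 118 in Ncapd2.

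**Figure D1:**
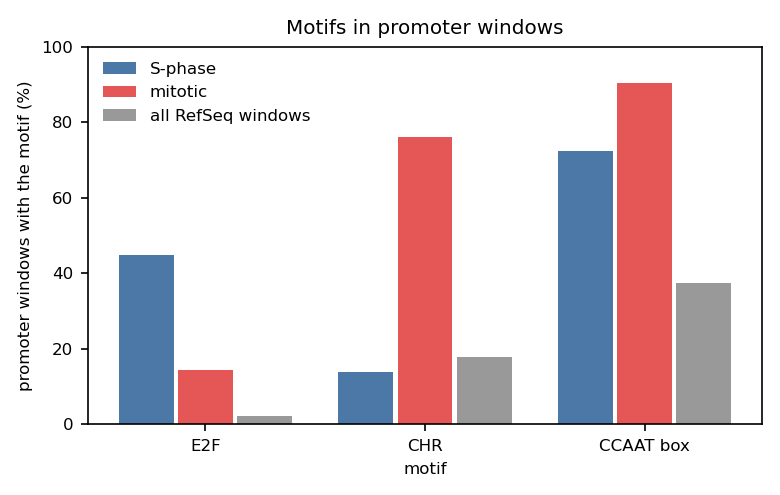
Share of promoter windows with E2F letters, CHR letters or a CCAAT box (vertical axis, percent of windows) for S-phase genes (29 windows), mitotic genes (21 windows) and all 32851 RefSeq windows. E2F letters stand in 44.8% of S-phase windows and CHR letters in 76.2% of mitotic windows.

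Depth was even, at 25282327 to 27475056 read pairs a sample, of which 18898324 to 21665553 were counted on genes without regard to strand. The 3 BMAd-Pnpla2-/- CR libraries stand apart in their preparation: 50.1% to 50.5% of their strand-assigned counts lay on the first strand, against 4.30% to 4.62% in the other 11. Unstranded counts were therefore used for all 14. Library type and group cannot be told apart for BMAd-Pnpla2-/- CR. Without strand, reads where a gene overlaps one on the opposite strand are counted for neither. Of the exonic bases of Gins2, 67.3% overlap Gse1, and for Kif20a 29.3% overlap Cdc23, for Ube2c 22.8% Tnnc2 and for Ccne2 17.4% Ints8, so that the values of these genes are the less certain ones. Levels are given as CPM, read counts scaled to the effective size of each library. Pnpla2 itself was at 174 to 301 CPM in the controls on AL and at 502 to 1015 CPM in the controls with CR. In BMAd-Pnpla2-/- samples it was at 131 to 170.1 CPM on AL and at 177 to 267 CPM with CR. The genotypes did not overlap on either diet, with log2 fold changes for BMAd-Pnpla2-/- of -0.57 ± 0.25 on AL, which did not pass the test, and -1.90 ± 0.26 under CR (adjusted p = 0.0386). Adipocyte markers such as Plin1 and Fabp4 were detected in every sample, as were the markers of erythroblasts and neutrophils.

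BMAd-Pnpla2+/+ CR replicates 2 and 3 stood apart from all others for the genes described here. Both lay below every other sample in 53 of 56 genes, and the lowest value of each of the 56 genes was found in replicate 3 (39 genes) or replicate 2 (17 genes). By contrast, BMAd-Pnpla2+/+ CR replicate 4 was at or above the lowest AL control in 33 of 56 genes, and replicate 1 in 3. These counts were not made over all genes. The levels of erythroblast, mature neutrophil and megakaryocyte markers, given below, were also lowest in CR replicates 2 and 3, so standing apart was not particular to the 56 genes. The main counts and medians of the 56 genes that rest on these libraries are given with and without them, but not every value is. CR replicates 2 and 3 were picked for their low values in the 56 genes. Leaving them out therefore shrinks, by construction, a difference that rests on BMAd-Pnpla2+/+ CR. It also leaves that group with CR replicates 1 and 4 alone.

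Per kilobase of exon, the most abundant transcript was Mki67, the proliferation antigen Ki-67, with a mean of 162 CPM per kb over the 14 samples. It was followed by the activator E2f2 (118), Rrm2, the regulated subunit of ribonucleotide reductase (115), Ube2c, the ubiquitin-conjugating enzyme of the anaphase-promoting complex (94.3), and Pcna, the sliding clamp of the polymerases (91.8). The lowest were Gins2 (3.82), Pola1 (4.15) and Hells (4.36). The median over the 56 genes was 22.8 CPM per kb.

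As a mean of log2 CPM over its 30 members, the S-phase level was 6.42, 6.91, 6.58 and 6.58 in BMAd-Pnpla2+/+ mice on AL, replicates 1 to 4, and 6.15, 5.41, 5.28 and 6.52 with CR, replicates 1 to 4. In BMAd-Pnpla2-/- mice it was 6.94, 6.32 and 6.69 on AL and 6.59, 6.54 and 6.08 with CR. The groups of BMAd-Pnpla2+/+ mice overlapped through CR replicate 4, and those of BMAd-Pnpla2-/- mice through AL replicate 2. The mitotic level was 7.08, 7.62, 7.23 and 7.15 in BMAd-Pnpla2+/+ mice on AL and 6.68, 5.86, 5.75 and 7.08 with CR, followed by 7.55, 6.95 and 7.32 in BMAd-Pnpla2-/- mice on AL and 7.24, 7.0 and 6.62 with CR. The replicates stood in the same order in both levels in BMAd-Pnpla2+/+ CR (4, 1, 2, 3 from high to low) and in BMAd-Pnpla2-/- mice on either diet (1, 3, 2 on AL and 1, 2, 3 with CR). Group means with SD were 6.62 ± 0.20 and 5.84 ± 0.59 for the S-phase level of BMAd-Pnpla2+/+ AL and CR (n = 4 each), and 6.65 ± 0.31 and 6.40 ± 0.28 for that of BMAd-Pnpla2-/- AL and CR (n = 3 each). The spread within BMAd-Pnpla2+/+ CR was the widest of the 4.

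**Figure D2:**
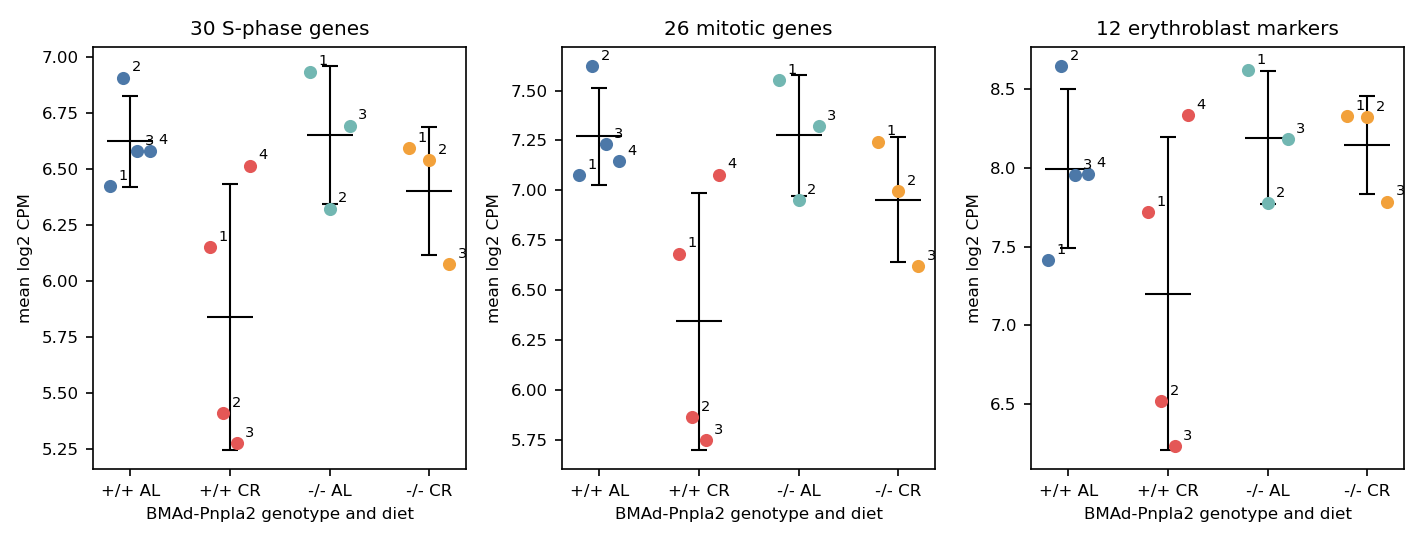
Mean log2 CPM of the 30 S-phase genes, the 26 mitotic genes and 12 erythroblast markers (vertical axes) in each sample, by genotype and diet. Points are samples with their replicate number, and the bar with whiskers is the mean ± SD (n = 4 or 3). BMAd-Pnpla2+/+ CR replicates 2 and 3 are the lowest points in all 3 panels.

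The first comparison asked how these genes respond to CR when BMAds keep their lipase. In BMAd-Pnpla2+/+ mice, 29 of 56 genes fell with CR and none rose, by edgeR's quasi-likelihood test with an adjusted p under 0.05 (Benjamini-Hochberg over all 17671 genes), while 10.9% of all genes tested fell and 15.1% rose. The 29 were 13 of 30 S-phase and 16 of 26 mitotic genes. The log2 fold changes of all 56 were below 0, as were those of 49.8% of all genes, and ranged from -1.05 to -0.40. Their median was -0.71 for S-phase and -0.82 for mitotic genes, against 0.00 for all genes tested. Unadjusted p was under 0.05 for 51 of the 56, against 18.7% of all genes in this direction. In 23 genes every CR sample lay below every AL sample, which was so for 10.4% of all genes. Only Pola1 and Top2a also passed a fold change of more than 1 on the log2 scale, the second criterion of the study, which 1.94% of all genes passed downwards.

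This count depended on single libraries. Without BMAd-Pnpla2+/+ CR replicate 4 it was 54, without CR replicate 2 it was 7 and without CR replicate 3 it was 9, while the share of all genes that fell was 15.8%, 6.11% and 4.45% in these fits. It was 8, 18 and 16 without AL replicate 2, 3 or 4, where 6.75%, 8.09% and 8.36% of all genes fell. In these 6 fits the share over all genes moved in the same direction as the count of the 56. CR replicates 2 and 3 were also left out together, after they were seen to be the lowest for these genes. That choice by itself makes the fall smaller, so this fit cannot decide whether the fall holds. In it no gene of the 56 passed edgeR's test and 0.909% of all genes fell. Of the 56, 12 had an unadjusted p under 0.05, against 9.03% of all genes in this direction. The medians were -0.30 for S-phase and -0.39 for mitotic genes. With these libraries out, 55 of 56 genes still lay below 0, E2f8 being the exception. In each of the 14 fits that left out 1 library, 7 of the genes passed: Bub1b, Cdc20, Foxm1, Mcm5, Pola1, Pold1 and Uhrf1. The share of all genes that passed in each of the 14 was not counted, so the 7 cannot be set against a background.

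Among the 6 G1/S regulators, E2f1 fell and the other 5 did not pass the test. E2f1, an activator of the S-phase genes, was at 77.9, 92.7, 84.6 and 81.2 CPM in BMAd-Pnpla2+/+ AL replicates 1 to 4 and at 63.6, 44.3, 33.1 and 66.4 CPM in CR replicates 1 to 4. No CR sample reached the AL range, and the log2 fold change was -0.70 ± 0.20 (SE) with an adjusted p of 0.0217. E2f2, its more abundant relative in marrow, was at 477, 793, 634 and 614 CPM on AL and at 474, 277, 217 and 739 CPM with CR. Here CR replicate 4 was above 3 of the 4 AL samples, and the difference of -0.56 ± 0.32 did not pass (adjusted p = 0.2). Cyclin E2 (Ccne2) and cyclin E1 (Ccne1), the partners of CDK2 at the G1/S transition, had log2 fold changes of -0.80 ± 0.32 and -0.69 ± 0.35 with adjusted p of 0.0783 and 0.157. For Cdk2 the value was -0.42 ± 0.15 (adjusted p = 0.0519) and for the atypical repressor E2f8 -0.45 ± 0.29 (adjusted p = 0.259).

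Of 10 origin licensing genes, 5 fell with CR, and all 5 were subunits of the MCM2-7 helicase, the ring that is loaded on DNA in G1. Mcm5 (chr8:75109569-75128439, + strand) was at 237, 312, 255 and 234 CPM on AL and 161, 117, 87.1 and 189 CPM with CR. The ranges did not overlap, and the log2 fold change was -0.91 ± 0.22 (adjusted p = 0.0122). Mcm2 was at 250.2, 349, 268 and 268 CPM on AL and at 192, 132, 96.1 and 222 CPM with CR, again without overlap (-0.82 ± 0.24, adjusted p = 0.0263). Mcm3, Mcm4 and Mcm6 fell by 0.75, 0.66 and 0.80 on the log2 scale, with adjusted p of 0.0265, 0.0416 and 0.0347. The remaining subunit, Mcm7, had a log2 fold change of -0.72 ± 0.26 that missed the threshold (adjusted p = 0.0534). Neither the loading factors Cdc6 and Cdt1 (-0.79 ± 0.36 and -0.49 ± 0.20) nor the origin recognition subunits Orc1 and Orc6 (-0.53 ± 0.34 and -0.40 ± 0.23) passed, with adjusted p between 0.089 and 0.247. The licensing genes that did not pass had the smaller changes or, as in Cdc6, the larger standard errors.

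Helicase activation and the polymerases had 5 of 8 genes lower with CR. Pola1 (chrX:93304767-93632155, - strand), the catalytic subunit of the polymerase that primes DNA synthesis, had the second lowest log2 fold change of the 56. It was at 36.1, 62.8, 37.6 and 43.4 CPM on AL and at 25.2, 16.4, 14.1 and 31.5 CPM with CR, so that the highest CR sample was below the lowest AL sample (-1.05 ± 0.27, adjusted p = 0.0154). Pcna was at 241, 309.9, 235 and 260.4 CPM on AL and at 179.6, 97.3, 92.6 and 219 CPM with CR, also without overlap (-0.83 ± 0.26, adjusted p = 0.0335). In Pold1, the catalytic subunit of the lagging-strand polymerase, the fall was smaller but the replicates were closer, at 127, 126, 129.6 and 161 CPM on AL and 100.4, 91.4, 69.1 and 105 CPM with CR (-0.57 ± 0.15, adjusted p = 0.0166). Cdc45 and Gins2, which complete the active helicase, fell by 0.63 and 0.70 on the log2 scale, while Mcm10, Gins1 and the primase Prim1 had adjusted p of 0.0513, 0.092 and 0.0629.

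None of the 4 genes of deoxynucleotide supply passed edgeR's test, although each had an unadjusted p under 0.05. Rrm2 was at 303, 500.5, 346 and 341 CPM on AL and at 256, 119, 111 and 349.7 CPM with CR. CR replicate 4 was above 3 of the 4 AL samples and replicates 2 and 3 were far below them, and the log2 fold change of -0.84 ± 0.33 had an adjusted p of 0.0796. Thymidylate synthase (Tyms) was at 43.9, 61.7, 46.7 and 49.2 CPM on AL and 35.7, 17.9, 15.97 and 45.6 CPM with CR, where replicate 4 was above 1 AL sample (-0.81 ± 0.30, adjusted p = 0.064). Rrm1 and thymidine kinase (Tk1) had log2 fold changes of -0.66 ± 0.28 and -0.59 ± 0.25. Both genes of DNA methylation upkeep fell. Uhrf1, which recruits the maintenance methyltransferase to newly copied DNA, was at 199, 228, 213 and 217 CPM on AL and at 124, 86.5, 71.1 and 162 CPM with CR without overlap (-0.95 ± 0.23, adjusted p = 0.012). For Hells, a chromatin remodeller needed for DNA methylation, the log2 fold change was -0.74 ± 0.23 (adjusted p = 0.0307).

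In mitotic entry, Foxm1 and cyclin A2 (Ccna2) fell, and Cdk1, Ccnb1 and Ccnb2 did not pass. Foxm1, the transcription factor of the G2 and mitotic genes, was at 149, 173, 151 and 158 CPM on AL and at 105, 80.1, 65.96 and 132 CPM with CR. The ranges did not overlap (-0.72 ± 0.18, adjusted p = 0.0131). Ccna2, the cyclin of S phase and of mitotic entry, was at 246, 379, 253 and 268 CPM on AL and at 191, 95.3, 82.9 and 248 CPM with CR. CR replicate 4 lay within the AL range, and the log2 fold change was -0.89 ± 0.31 with an adjusted p of 0.0491, just inside the threshold. Just outside it were Ncapg (0.0512), Mcm10 (0.0513) and Cdk2 (0.0519). Cdk1, the kinase that drives mitosis, and its cyclins Ccnb1 and Ccnb2 had log2 fold changes of -0.78 ± 0.30, -0.77 ± 0.30 and -0.78 ± 0.27.

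All 6 genes of the mitotic kinases and the spindle checkpoint fell with CR. Bub1b (chr2:118598211-118641591, + strand), which encodes the checkpoint protein BUBR1, had the smallest adjusted p of the 56 genes. It was at 115, 136, 113 and 111 CPM on AL and at 66.4, 46.7, 45.1 and 86.8 CPM with CR, and no CR sample came near the AL range (-0.96 ± 0.19, adjusted p = 0.00531). Birc5, encoding survivin of the chromosomal passenger complex, was at 113, 202, 153 and 142 CPM on AL and at 90.02, 49.9, 43.5 and 123 CPM with CR. CR replicate 4 lay within the AL range (-0.99 ± 0.30, adjusted p = 0.0317). The kinases Plk1, Bub1, Aurka and Aurkb fell by 0.83, 0.82, 0.80 and 0.74 on the log2 scale, each without overlap between the groups, with adjusted p from 0.0223 to 0.0393.

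Cdc20, the activator of the anaphase-promoting complex, was at 121, 157, 131 and 117 CPM on AL and at 86.8, 58.7, 42.7 and 92.96 CPM with CR, without overlap (-0.90 ± 0.22, adjusted p = 0.0129). Ube2c, of the same step of mitotic exit, was at 228, 405, 288 and 254 CPM and at 188, 103, 87.5 and 278 CPM. Its CR replicate 4 was above 2 of the AL samples and the difference did not pass (-0.84 ± 0.32, adjusted p = 0.0689). In the spindle and cytokinesis group, 3 of 5 genes fell. Kif11, the kinesin that pushes the spindle poles apart, was at 167, 250.1, 187 and 186 CPM on AL and at 119, 65.2, 64.4 and 172 CPM with CR, where replicate 4 was just inside the AL range (-0.91 ± 0.28, adjusted p = 0.0328). Kif23, a kinesin of the central spindle, was at 103, 152, 114 and 109 CPM on AL and at 87.6, 46.03, 47.5 and 95.9 CPM with CR, without overlap (-0.79 ± 0.24, adjusted p = 0.0291). Tpx2, the activator of Aurora A, fell by 0.86 on the log2 scale (adjusted p = 0.0358). Nusap1 and Kif20a had log2 fold changes of -0.94 ± 0.35 and -0.63 ± 0.23 that did not pass.

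Of 3 centromere and kinetochore genes, Cenpa and Cenpe fell. Cenpa, the histone H3 variant that marks centromeres, was at 108, 159, 139 and 139 CPM on AL and at 94.9, 56.6, 53.4 and 108 CPM with CR. Only CR replicate 4 touched the AL range (-0.80 ± 0.22, adjusted p = 0.0208). Cenpe, a kinetochore motor, fell by 0.88 on the log2 scale (adjusted p = 0.0456). Cenpf, of the outer kinetochore, was at 128, 225, 158 and 133 CPM on AL and at 108, 65.9, 51.8 and 145 CPM with CR, and the difference of -0.80 ± 0.29 did not pass (adjusted p = 0.0616).

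Of 5 genes of chromosome structure, Top2a and Ncapd2 fell. Top2a (chr11:98992943-99024189, - strand), the topoisomerase that untangles sister chromatids, was at 429, 608, 459 and 440.4 CPM on AL and at 275, 147, 144 and 369 CPM with CR. The highest CR sample was below the lowest AL sample, and the log2 fold change of -1.05 ± 0.29 was the lowest of the 56 (adjusted p = 0.0212). Ncapd2, a condensin subunit, fell by 0.89 on the log2 scale (adjusted p = 0.0308). Mki67, which coats mitotic chromosomes and is used as a marker of cycling cells, was at 1702, 2800.3, 1865 and 1582 CPM on AL and at 1418, 809.9, 531 and 1882 CPM with CR. Its CR replicate 4 was above 3 AL samples, and the value of -0.78 ± 0.34 did not pass (adjusted p = 0.103). The condensin subunits Ncapg and Smc2 had log2 fold changes of -0.89 ± 0.31 and -0.73 ± 0.30.

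**Figure D3:**
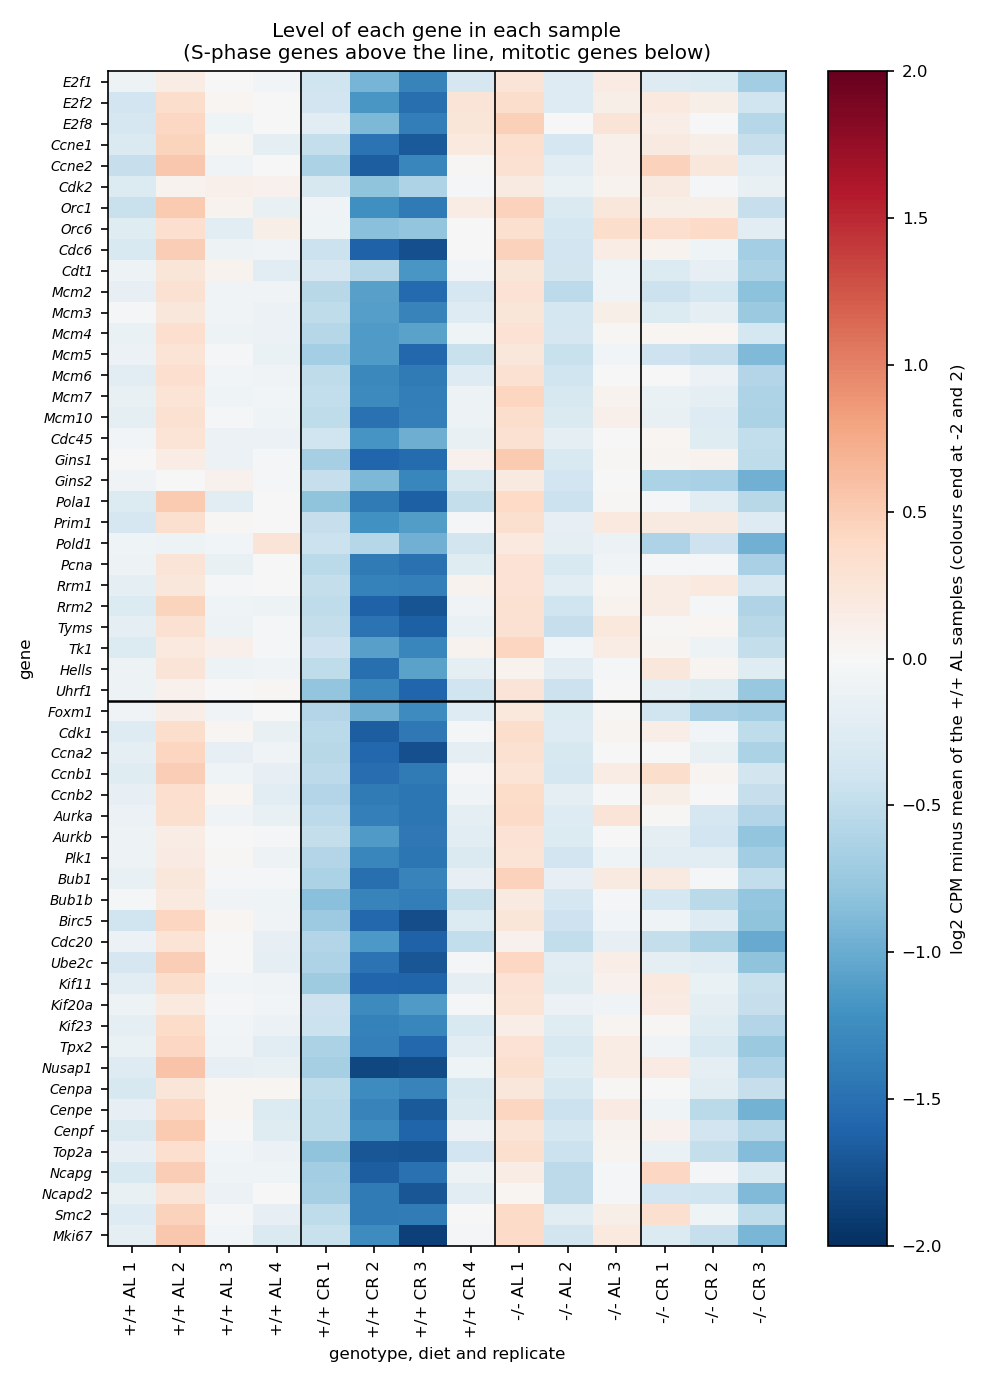
Log2 CPM of each of the 56 genes (rows) in each of the 14 samples (columns), relative to the mean of the 4 BMAd-Pnpla2+/+ AL samples. The columns of BMAd-Pnpla2+/+ CR replicates 2 and 3 are low throughout, whereas that of CR replicate 4 resembles the AL samples.

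Genes with and without the motif letters were set side by side. Of the S-phase genes with a promoter window, 7 of 13 with E2F letters fell, with a median log2 fold change of -0.74, and 4 of 13 without them fell, with a median of -0.69. Of the mitotic genes, 9 of 16 with CHR letters fell (median -0.81), as did 3 of 5 without them (median -0.88). These are counts and medians, and the differences were not tested.

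The second comparison asked whether the same genes respond to CR when BMAds lack Pnpla2. In BMAd-Pnpla2-/- mice, Pold1 alone of the 56 genes fell and none rose, at a background of 5.57% of all genes falling and 6.04% rising. In edgeR's test 4 genes had an unadjusted p under 0.05, against 13% of all genes in this direction. DESeq2 called 3 as lower, where it called 9.58% of all genes lower. Pold1 was at 154, 118 and 124 CPM in BMAd-Pnpla2-/- AL replicates 1 to 3 and at 88.4, 101 and 69.1 CPM in CR replicates 1 to 3. The groups did not overlap (-0.61 ± 0.17, adjusted p = 0.0375), but the call was lost without AL replicate 1 or 3 or without CR replicate 1 or 3, with adjusted p up to 0.154. The count was 3 without AL replicate 2 (5.71% of all genes), 3 without BMAd-Pnpla2+/+ CR replicate 3 or 4 (7.02% and 6.23%) and 6 without BMAd-Pnpla2+/+ CR replicates 2 and 3 (8.24%). The 3 other genes with an unadjusted p under 0.05 were Gins2 (-0.69 ± 0.22, adjusted p = 0.0546), Foxm1 (-0.57 ± 0.20, adjusted p = 0.0814) and Bub1b (-0.50 ± 0.22, adjusted p = 0.152). In these 4 genes, and in no other of the 56, every CR sample was below every AL sample, which was so for 17.4% of all genes. All 4 had also fallen in BMAd-Pnpla2+/+ mice.

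Most S-phase and mitotic genes lay somewhat lower with CR in BMAd-Pnpla2-/- mice as well, within the spread of the replicates. The log2 fold change was below 0 for 52 of 56 genes, against 45.5% of all genes, and ranged from -0.69 in Gins2 to 0.17 in Ncapg. Medians were -0.25 for S-phase and -0.29 for mitotic genes, against 0.05 for all genes tested. Mcm5 was at 301, 189.8 and 248 CPM on AL and at 194, 186 and 139 CPM with CR, and Mcm2 at 343, 197 and 267 CPM on AL and at 209, 219.9 and 159.6 CPM with CR. The groups overlapped in both, though in Mcm5 through CR replicate 1 alone (-0.51 ± 0.25 and -0.46 ± 0.28). Pola1 was at 58.02, 32.7 and 44.5 CPM on AL and at 42.6, 37.97 and 29.8 CPM with CR (-0.29 ± 0.30, adjusted p = 0.564), and Pcna at 318, 212 and 248 CPM and 252, 252 and 166 CPM (-0.21 ± 0.30). Rrm2 at 450.5, 278 and 385 CPM on AL and 405, 358 and 242 CPM with CR showed 2 CR samples inside the AL range and replicate 3 below it. BMAd-Pnpla2-/- CR replicate 3 was at or above the lowest BMAd-Pnpla2+/+ AL sample in 5 of 56 genes, against 42 and 32 for CR replicates 1 and 2.

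Among the mitotic genes, Top2a was at 600.4, 356 and 496 CPM in BMAd-Pnpla2-/- mice on AL and at 437, 342 and 261 CPM with CR (-0.48 ± 0.33, adjusted p = 0.368). Bub1b was at 135, 93.9 and 115 CPM on AL and at 93.1, 81.3 and 69.3 CPM with CR, and Foxm1 at 182, 130.3 and 161 CPM on AL and at 120.0, 100.2 and 97.4 CPM with CR. In Bub1b and Foxm1 the highest CR sample was just below the lowest AL sample. Ccna2 at 350.0, 226 and 285 CPM on AL and 285, 255 and 182 CPM with CR overlapped (-0.25 ± 0.35), as did Kif11 at 238, 165 and 206 CPM and 224, 178 and 144 CPM (-0.16 ± 0.32). Mki67 was at 2520.2, 1501 and 2224 CPM on AL and at 1608, 1401 and 1025 CPM with CR, and with -0.63 ± 0.39 had the lowest fold change of the mitotic genes (adjusted p = 0.307).

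**Figure D4:**
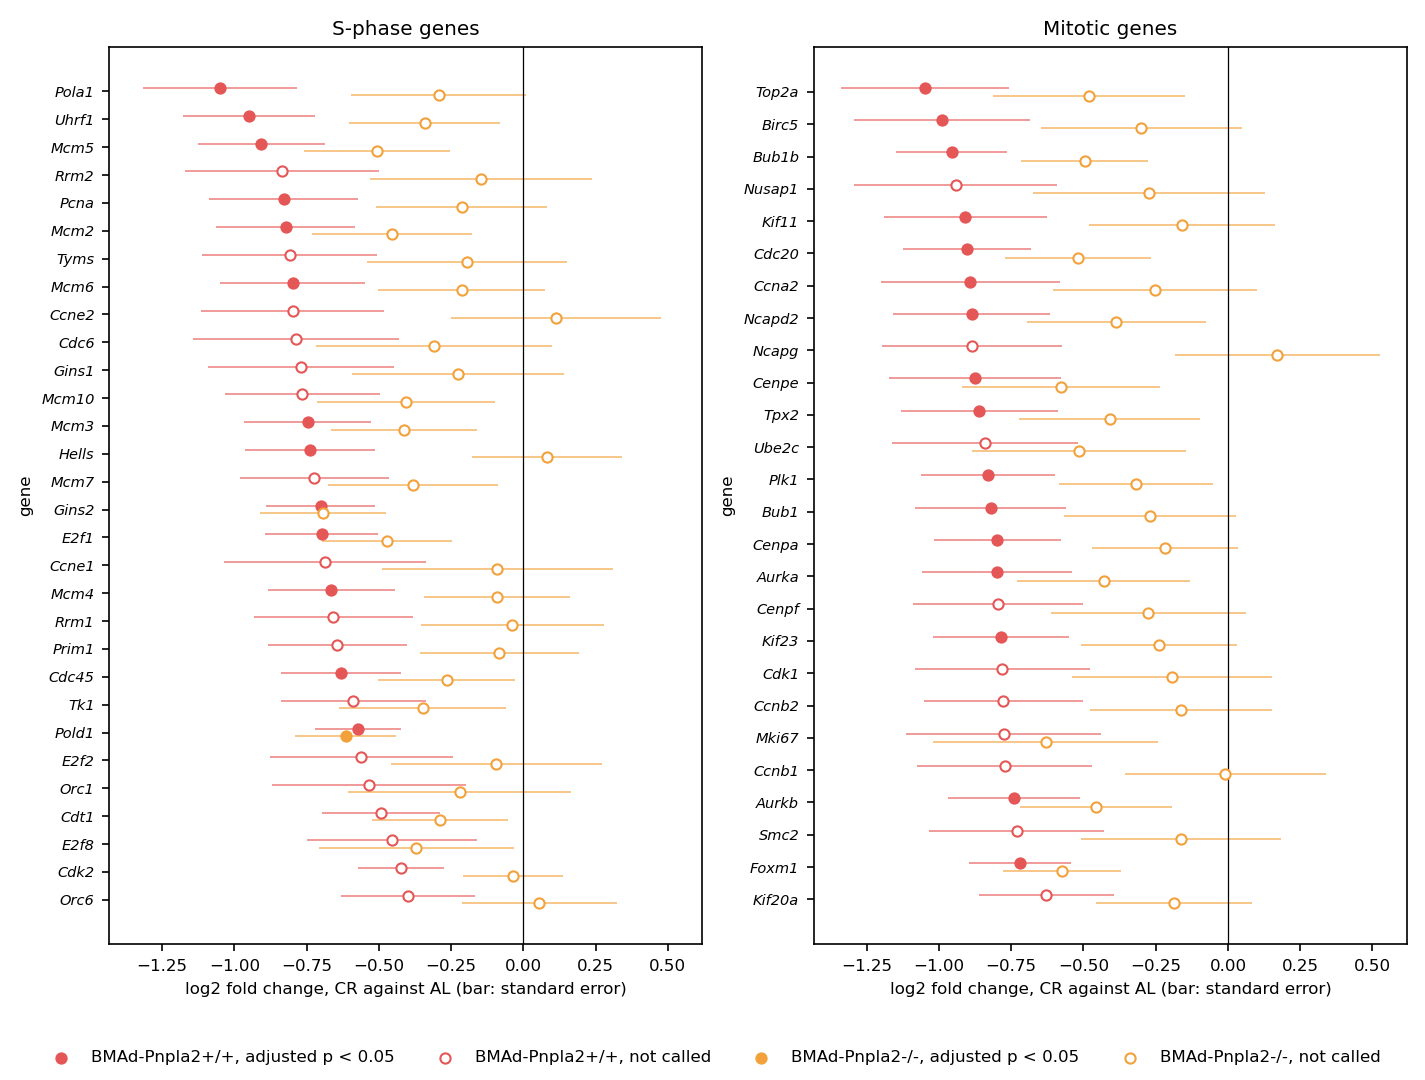
Log2 fold change of CR against AL (horizontal axis) for each gene in BMAd-Pnpla2+/+ mice (red) and in BMAd-Pnpla2-/- mice (orange), with bars for the standard error. Filled points passed an adjusted p under 0.05, which held for 29 genes in BMAd-Pnpla2+/+ and for Pold1 in BMAd-Pnpla2-/- mice.

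The third comparison, of the genotypes, set BMAd-Pnpla2-/- against BMAd-Pnpla2+/+ mice on each diet. On AL, none of the 56 genes passed, 0 had an unadjusted p under 0.05 in edgeR's test, and DESeq2 called 0. Of all genes tested, 0.0% passed and 3.96% had an unadjusted p under 0.05. The log2 fold change was above 0 in 37 of the 56 and in 48.0% of all genes, a tally that single libraries decided: it was 6 without BMAd-Pnpla2-/- AL replicate 1, 15 without BMAd-Pnpla2+/+ AL replicate 1 and 55 without BMAd-Pnpla2-/- AL replicate 2. Fold changes ranged from -0.18 in Cdc20 to 0.23 in E2f8 on the log2 scale, with medians of 0.04 for S-phase and 0.02 for mitotic genes. Without 1 library, these medians ran from -0.12 to 0.19 and from -0.11 to 0.18. Pcna was at 241, 309.9, 235 and 260.4 CPM in the controls and at 318, 212 and 248 CPM in BMAd-Pnpla2-/- mice, and Top2a at 429, 608, 459 and 440.4 CPM and 600.4, 356 and 496 CPM. The genotypes overlapped in all 56 genes on AL, whereas of all genes 3.14% lay lower and 2.32% higher without overlap. The highest sample of all 14 was BMAd-Pnpla2+/+ AL replicate 2 for 31 genes and BMAd-Pnpla2-/- AL replicate 1 for 22.

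Under CR, no gene of the 56 passed edgeR's test between the genotypes, at a background of 0.0113% of all genes. DESeq2 called 1 as higher in BMAd-Pnpla2-/- mice, where it called 4.74% of all genes higher and 7.15% lower. In edgeR's test 16 had an unadjusted p under 0.05. All 16 were higher in BMAd-Pnpla2-/- mice, where 11.8% of all genes were higher at this threshold. The 16 became 1 without BMAd-Pnpla2-/- CR replicate 1, 6 without replicate 2 and 30 without replicate 3 of that group. Of all genes, 6.19%, 9.31% and 11% were higher at this threshold in these fits. The 16 became 10 without BMAd-Pnpla2-/- AL replicate 3 (8.09% of all genes higher). Without BMAd-Pnpla2+/+ CR replicate 2, 3 or 4 they became 5, 3 and 46, where 7.68%, 10.2% and 16.4% of all genes were higher. Of the 56 genes, 54 had a log2 fold change above 0, against 48.7% of all genes, with medians of 0.55 for S-phase and 0.51 for mitotic genes. Pold1 and Gins2 were the 2 below 0. The 3 genes with the smallest p are given here, chosen after their values were seen. Hells was at 25.1, 12.5, 16.8 and 31.4 CPM in BMAd-Pnpla2+/+ CR and 41.5, 37.02 and 30.1 CPM in BMAd-Pnpla2-/- CR (0.76 ± 0.24, adjusted p = 0.104). Ccne2 was at 22.1, 10.9, 13.8 and 34.98 CPM in BMAd-Pnpla2+/+ CR and 47.4, 40.5 and 29.9 CPM in BMAd-Pnpla2-/- CR (0.94 ± 0.34, adjusted p = 0.134), and Ncapg at 34.7, 17.9, 19.8 and 52.1 CPM and 75.1, 55.2 and 45.7 CPM (0.92 ± 0.33, adjusted p = 0.137). In each of these 3 genes, BMAd-Pnpla2+/+ CR replicate 4 lay within the range of the BMAd-Pnpla2-/- CR samples, and no gene of the 56 separated the genotypes under CR, while 8.65% of all genes lay higher without overlap. Without BMAd-Pnpla2+/+ CR replicate 4, 24 genes passed as higher in BMAd-Pnpla2-/- mice, as did 6.56% of all genes. With BMAd-Pnpla2+/+ CR replicates 2 and 3 left out, 36 of the 56 genes were above 0 and 20 below, against 51.2% of all genes above 0. In that fit the medians were 0.061 and 0.094 and no gene of the 56 had an unadjusted p under 0.05.

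The difference between the CR responses of the genotypes was tested as an interaction in the same model. None of the 56 genes passed, as none of all 17671 genes did (0.0%), 2 had an unadjusted p under 0.05 in edgeR's test, against 6.02% of all genes in this direction, and DESeq2 called 0. These were Hells (0.82 ± 0.34, adjusted p = 0.438) and Ncapg (1.06 ± 0.47, adjusted p = 0.468). The estimate was above 0, meaning a smaller fall in BMAd-Pnpla2-/- mice, for 55 of 56 genes, against 50.1% of all genes, with medians of 0.46 for S-phase and 0.53 for mitotic genes. The exception was Pold1 (-0.04 ± 0.23). Thus 29 calls in one genotype and 1 in the other were not accompanied by a gene whose responses were shown to differ. With BMAd-Pnpla2+/+ CR replicates 2 and 3 left out, the estimate was above 0 for 37 genes and below 0 for 19, against 52.4% of all genes above 0, with medians of 0.026 and 0.099 and no unadjusted p under 0.05 among the 56. Without BMAd-Pnpla2+/+ CR replicate 4, 32 genes had an unadjusted p under 0.05 for this difference, as did 9.47% of all genes in this direction, and 0 to 3 did without any other 1 library. The BMAd-Pnpla2-/- CR libraries enter this estimate, the comparison of CR with AL in BMAd-Pnpla2-/- mice and that of the genotypes under CR, all of which share samples with one another.

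The levels of the classes were also set against each other, with no test. The S-phase level minus the mitotic level was -0.65, -0.71, -0.65 and -0.57 log2 units in BMAd-Pnpla2+/+ mice on AL and -0.53, -0.45, -0.47 and -0.56 with CR. CR replicates 1 to 3 lay above the AL samples, whereas CR replicate 4 (-0.563) and AL replicate 4 (-0.565) were nearly equal. In BMAd-Pnpla2-/- mice the difference was -0.62, -0.63 and -0.63 on AL and -0.65, -0.46 and -0.54 with CR, where CR replicate 1 lay below the AL samples and CR replicates 2 and 3 above them.

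Other genes of the same processes, listed by their textbook roles, were counted beside them. Of 40 other replication genes, 20 fell in BMAd-Pnpla2+/+ mice with CR and none rose, with a median log2 fold change of -0.61. Of all genes tested, 10.9% fell and 15.1% rose in this comparison. The chromatin assembly factor Chaf1a was at 68.1, 95.1, 72.5 and 68.5 CPM on AL and at 48.8, 38.01, 26.7 and 51.9 CPM with CR (-0.88 ± 0.20, adjusted p = 0.0096), the clamp loader subunit Rfc2 had a log2 fold change of -0.56 ± 0.13 (adjusted p = 0.0096) and the flap endonuclease Fen1 one of -1.25 ± 0.28 (adjusted p = 0.00809). Chaf1a and Rfc2 were the 2 of the 40 that fell in BMAd-Pnpla2-/- mice as well, by 0.77 and 0.49. Of 42 other mitosis genes, 19 fell in BMAd-Pnpla2+/+ mice (median -0.74), among them the chromosomal passenger genes Incenp (-0.87 ± 0.21) and Cdca8 (-0.88 ± 0.23) and the kinetochore gene Spc24 (-1.09 ± 0.26). In BMAd-Pnpla2-/- mice none of the 42 passed edgeR's test (2 at an unadjusted p under 0.05, 0 called by DESeq2, median -0.28). Of all genes, 5.57% fell in that genotype and 13% were lower at an unadjusted p under 0.05. With BMAd-Pnpla2+/+ CR replicates 2 and 3 left out, none of the 82 passed in BMAd-Pnpla2+/+ mice, the medians being -0.28 for replication and -0.31 for mitosis, and 8 and 10 had an unadjusted p under 0.05. Of all genes, 9.03% were lower and 11.5% higher at this threshold in that fit.

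The genes that act before commitment were more mixed. Of 25 G1 cyclins, kinases, pocket proteins and inhibitors, 11 fell and 3 rose with CR in BMAd-Pnpla2+/+ mice, and 1 fell and 1 rose in BMAd-Pnpla2-/- mice. Of all genes, 10.9% fell and 15.1% rose in BMAd-Pnpla2+/+ mice, and 5.57% fell and 6.04% rose in BMAd-Pnpla2-/- mice. Without BMAd-Pnpla2+/+ CR replicates 2 and 3, the counts in BMAd-Pnpla2+/+ mice were 0 and 1, against 0.909% and 1.53% of all genes. Cdkn1a, which encodes the CDK inhibitor p21, was at 13.1, 10.4, 9.99 and 12.8 CPM in BMAd-Pnpla2+/+ mice on AL and at 20.9, 25.7, 31.6 and 29.4 CPM with CR, and at 12.5, 15.2 and 11.95 CPM in BMAd-Pnpla2-/- mice on AL and 14.97, 21.3 and 33.8 CPM with CR. It rose with CR in both genotypes (1.22 ± 0.21, adjusted p = 0.00323, and 0.82 ± 0.25, adjusted p = 0.0461). Cdkn1c, encoding the related inhibitor p57, rose in BMAd-Pnpla2+/+ mice (1.42 ± 0.35, adjusted p = 0.0131), its value in BMAd-Pnpla2-/- mice being 0.99 ± 0.40 (adjusted p = 0.118). The third that rose was Cdkn2b, at a mean of 0.815 CPM over all samples. Cdk4, the partner of D cyclins, was at 165, 190.4, 157 and 163 CPM in BMAd-Pnpla2+/+ mice on AL and at 118, 108, 90.6 and 128 CPM with CR (-0.60 ± 0.12, adjusted p = 0.00586). Trp53, named after its values were seen as the gene that fell in BMAd-Pnpla2-/- mice, had fallen in BMAd-Pnpla2+/+ mice too (-0.50 ± 0.13, adjusted p = 0.0161, and -0.60 ± 0.15, adjusted p = 0.0256). Of 6 replication-dependent histone genes, whose transcripts lack a poly(A) tail, 4 passed the filter. Hist1h1a and Hist1h1b fell in BMAd-Pnpla2+/+ mice (-1.53 ± 0.44 and -1.27 ± 0.39), and Hist1h1b and Hist1h4d in BMAd-Pnpla2-/- mice (-1.82 ± 0.45 and -1.21 ± 0.29), all at means of 1.01 to 2.02 CPM. In BMAd-Pnpla2-/- mice, CR and library type cannot be told apart for these histone genes.

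Markers of dividing and of mature cell types were counted beside these genes. The shares of all genes to set beside the counts were 10.9% lower and 15.1% higher in BMAd-Pnpla2+/+ mice. They were 5.57% and 6.04% in BMAd-Pnpla2-/- mice. Without BMAd-Pnpla2+/+ CR replicates 2 and 3, the shares in BMAd-Pnpla2+/+ mice were 0.909% and 1.53%, or 9.03% and 11.5% at an unadjusted p under 0.05. The lists are short, and small counts in them were not tested against these shares. The level of 12 erythroblast markers was 7.72, 6.52, 6.23 and 8.34 in BMAd-Pnpla2+/+ CR replicates 1 to 4, in the order of the S-phase and mitotic levels and with replicates 2 and 3 below every other sample, and the order of the replicates was that of the S-phase level in each of the 4 groups. Their summed level ranged from 2593 to 6013 CPM in BMAd-Pnpla2+/+ AL, from 1126 to 4848 CPM in BMAd-Pnpla2+/+ CR, from 3307 to 5762 CPM in BMAd-Pnpla2-/- mice on AL and from 3326 to 4855 CPM with CR. None of the 12 was at 0 in any sample, and in BMAd-Pnpla2+/+ mice none passed edgeR's test with CR (1 at an unadjusted p under 0.05, 0 called by DESeq2, median -0.65), the value of the erythroid transcription factor Klf1 being -0.94 ± 0.43. In neutrophil progenitor markers 7 of 12 fell (median -0.49), with a summed level of 19848 to 24251 CPM in BMAd-Pnpla2+/+ mice on AL and of 10756 to 20119 CPM with CR. Without BMAd-Pnpla2+/+ CR replicates 2 and 3, the median of the erythroblast markers was -0.01 and that of the neutrophil progenitor markers -0.37, and none of either list fell in edgeR's test (0 and 6 at an unadjusted p under 0.05). Of the 12 pro-B and pre-B cell markers, 8 fell in each genotype (medians -3.44 and -3.41), with log2 fold changes of -3.88 and -3.32 for Dntt, the DNA polymerase of antigen receptor joining. As a mean of log2 CPM, the pro-B and pre-B cell level was lower in all 7 CR samples than in any AL sample. Their summed level did not separate the diets in BMAd-Pnpla2+/+ mice, at 365 to 1427 CPM on AL and 531 to 622 CPM with CR. In BMAd-Pnpla2-/- mice the sum was 855 to 1059 CPM on AL and 257 to 559 CPM with CR. All 7 adipocyte markers rose in BMAd-Pnpla2+/+ mice (median 2.03) and 6 of 7 in BMAd-Pnpla2-/- mice (median 2.17), with the highest levels in BMAd-Pnpla2+/+ CR replicates 2 and 3 (7.26, 7.83, 7.77 and 6.47 in replicates 1 to 4). Without these libraries 2 of the 7 rose in BMAd-Pnpla2+/+ mice (7 at an unadjusted p under 0.05, median 1.30). Mature neutrophils no longer divide, and 5 of their 9 markers fell in BMAd-Pnpla2+/+ mice (median -0.70), among them Il1b (-1.27 ± 0.23), S100a8 (-0.96 ± 0.23) and S100a9 (-1.07 ± 0.25). Their level was 8.64, 8.89, 9.09 and 8.81 log2 CPM in BMAd-Pnpla2+/+ mice on AL and 8.53, 7.75, 7.90 and 8.57 with CR, with CR replicates 2 and 3 again the lowest of the 14, and 8.90, 8.87 and 8.95 in BMAd-Pnpla2-/- mice on AL and 8.91, 8.31 and 8.25 with CR. Of the 4 megakaryocyte markers tested, Pf4, Gp9 and Ppbp fell in BMAd-Pnpla2+/+ mice (median -0.82), and their level of 8.08, 7.44, 6.95 and 7.77 log2 CPM in CR replicates 1 to 4 was likewise lowest in replicates 2 and 3. In monocyte markers 3 of 6 fell (median -0.44). By contrast, 3 of 4 endothelial and 3 of 6 stromal and osteoblast markers rose in BMAd-Pnpla2+/+ mice (medians 0.85 and 0.80), with an endothelial level of 6.46, 7.04, 6.84 and 6.05 log2 CPM in CR replicates 1 to 4. Without BMAd-Pnpla2+/+ CR replicates 2 and 3, none of the mature neutrophil, megakaryocyte, endothelial or stromal markers passed edgeR's test (5, 2, 1 and 3 at an unadjusted p under 0.05). Of 7 T and NK cell markers 3 rose and 1 fell, and of 5 plasma cell markers 1 rose. The 10 stem and progenitor cell markers had 3 that fell and 3 that rose in BMAd-Pnpla2+/+ mice, and their mean level stayed within 4.85 to 5.17 log2 CPM in all 14 samples. The part of any of these cell types in the values of the S-phase and mitotic genes was not tested.

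**Figure D5:**
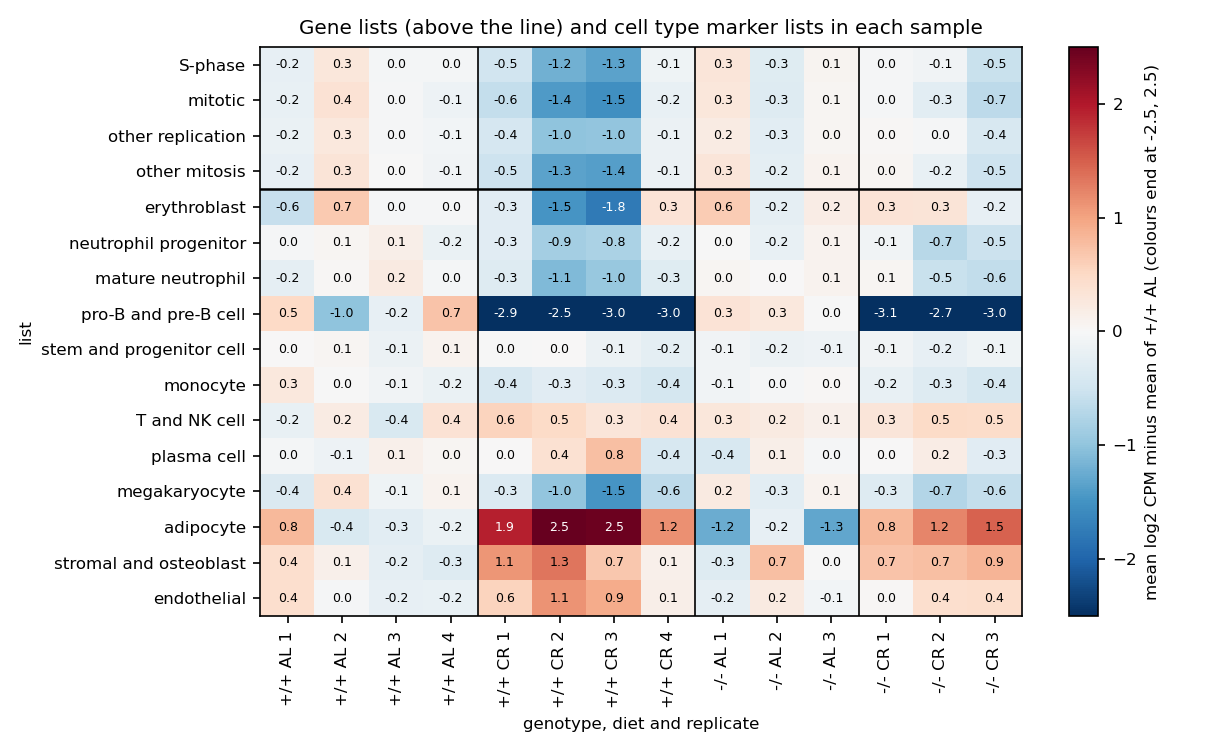
Mean log2 CPM of the S-phase, mitotic and other cell cycle lists and of 12 cell type marker lists (rows) in each sample (columns), relative to the mean of the 4 BMAd-Pnpla2+/+ AL samples. The cell cycle rows and the erythroblast row are lowest in BMAd-Pnpla2+/+ CR replicates 2 and 3, where the adipocyte row is highest, and the pro-B and pre-B cell row is low in all 7 CR samples.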

How the data were processed

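Bone marrow plugs of 14 samples were profiled by paired-end mRNA sequencing (DNBSEQ), which the study's methods describe as strand-specific. By their strand counts, the 3 BMAd-Pnpla2-/- CR libraries were not. Per the labels and the study's methods, reads were checked with FastQC 0.11.9 and aligned with STAR to mm10, and the authors used DESeq2. The authors deposited raw counts per gene for each sample (unstranded, first and second strand) and a matrix of 23441 genes, which equals the reverse-strand counts in 11 samples and the unstranded counts in the 3 BMAd-Pnpla2-/- CR samples. Unstranded counts were analysed for all 14, since reverse-strand counts leave out the first-strand counts of those 3 libraries. Of the pairs, 21.1% to 25.6% lay on no single gene and were left out of library sizes. No per-sample column was left out as foreign (0).

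Counts were filtered with filterByExpr over the 4 groups, scaled by TMM and fitted with edgeR 4.0.16 in R 4.3.3 (limma 3.58.1, statmod 1.5.0), as a robust quasi-likelihood model with 1 mean per group. P-values were two-sided and adjusted by Benjamini-Hochberg over all 17671 genes, with a threshold of 0.05. The study's further criterion, an absolute log2 fold change over 1, was an alternative. Mean log2 CPM used a prior count of 2. The fit was tested on simulated counts. DESeq2 1.42.0 was an alternative, as were reverse-strand counts, the deposited matrix, other scalings, no filter, fewer groups, a replicate block and leaving out libraries. Leaving out BMAd-Pnpla2+/+ CR replicates 2 and 3 together and leaving out the BMAd-Pnpla2-/- CR group were chosen after seeing the data. Tables were handled with Python 3.11.15 and pandas 2.3.3, and plots drawn with matplotlib 3.10.9. Positions and exon lengths were taken from GENCODE M21 (mm10), in which 55141 of 55401 gene identifiers were found, and promoter windows from RefSeq (GRCm38.p6).

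The 56 genes and the other lists were chosen with earlier results of these data known. Values in every sample are given for the genes of each role with the highest mean CPM or the smallest p in BMAd-Pnpla2+/+ mice, those past both criteria and those with the largest or smallest interaction. From the other lists, up to 3 genes with the smallest p may be named, and of markers also the 3 with the highest CPM. Equal replicate numbers did not pair the samples: 7 of 19 correlations of same-numbered samples across groups exceeded 0.1, between -0.38 and 0.33, as did 16 of 54 of differently numbered ones. Each sample is a pool of mice, so p-values measure the spread between pools.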

Additional observations from a re-analysis of the deposited data

Results flagged for a closer look

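Of 94 groups of 4 samples checked, 5 held a sample far from the other 3, and chance flags about 1 in 20 such groups. In 4 of the 5 it was BMAd-Pnpla2+/+ AL replicate 2, which stood above the other AL controls. Its Top2a was at 608 CPM against 429 to 459 CPM in the others, its Ccna2 at 379 CPM against 246 to 268 CPM, and its Bub1b at 136 CPM against 111 to 115 CPM. The mean level of the G1 cyclins and cell cycle brakes was 5.65 log2 CPM in it and 5.50 to 5.53 in the others. The fifth was BMAd-Pnpla2+/+ AL replicate 4, with Pold1 at 161 CPM against 126 to 129.6 CPM in the other AL controls. Without AL replicate 2, 8 of the 56 genes fell with CR in BMAd-Pnpla2+/+ mice in place of 29, and without AL replicate 4, 16 did. Of all genes, 6.75% and 8.36% fell in these fits, in place of 10.9%. A cause was not tested.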

How the results depend on the processing

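In BMAd-Pnpla2+/+ mice, the 29 genes lower with CR became 45 by DESeq2, 14 with only the groups compared in the fit and 12 with no filter on low counts. Of all genes, 13.1%, 5.68% and 4.58% fell in these fits, against 10.9% in the main fit. With the added criterion of fold change the count was 2, against 1.94% of all genes. The replicate numbers, which do not pair the samples, gave 46 as a replicate block, where 10.4% of all genes fell. This block left the counts of the other comparisons at 1 in BMAd-Pnpla2-/- mice and 0 elsewhere. Without 1 library, the count ran from 7 to 54 and the medians from -0.99 to -0.55 for S-phase and -1.11 to -0.66 for mitotic genes. Without BMAd-Pnpla2+/+ CR replicates 2 and 3 it was 0, with medians of -0.30 and -0.39, and E2f8 stood at 0.014.

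In BMAd-Pnpla2-/- mice, the count of 1 became 3 with the deposited matrix, by DESeq2 and with only the groups compared. Of all genes, 12%, 9.58% and 9.33% fell in these fits. With reverse-strand counts 2 genes fell and 1 rose, against 8.94% and 17% of all genes. The count was 2 with DESeq2 size factors in edgeR or with no filter, where 7.17% and 3.28% of all genes fell. It was 0 with the added criterion, 6 without BMAd-Pnpla2+/+ CR replicates 2 and 3 (8.24% of all genes), and 0 to 3 without 1 library. There, Ncapg was at -0.065 in the deposited matrix and from -0.049 to 0.32 without 1 library, E2f2 from -0.29 to 0.067 and Rrm2 from -0.36 to 0.039. Between genotypes under CR, the count of 0 became 2 with reverse-strand counts, 1 with the deposited matrix and 1 by DESeq2, all higher in BMAd-Pnpla2-/- mice. Of all genes, 13.1%, 6.8% and 4.74% were higher in these fits. Between genotypes under CR the count was 0 to 24 without 1 library. With BMAd-Pnpla2+/+ CR replicates 2 and 3 out, its medians were 0.061 and 0.094, and 18 genes turned from above to below 0, which left 20 of 56 below, among them E2f1 (-0.029), Mcm2 (-0.082), Mcm5 (-0.015), Foxm1 (-0.16), Ube2c (-0.085), Cdc20 (-0.16) and Mki67 (-0.30). The 16 with an unadjusted p under 0.05 became 36 with the replicate block and 8 with no filter or with only the groups compared. Of all genes, 13.2%, 5.3% and 9.46% were higher at this threshold in these fits. Without 1 library, Mki67 ran from -0.028 to 0.55 and Pold1 from -0.22 to 0.051. For the difference of the responses, reverse-strand counts called 1 gene as above 0, against 6.83% of all genes. Its medians without BMAd-Pnpla2+/+ CR replicates 2 and 3 were 0.026 and 0.099, with 18 genes turning below 0. For Pold1 it was 0.014 in the deposited matrix and from -0.18 to 0.092 without 1 library. On AL the count was 0 in all 25 alternatives, with medians from -0.12 to 0.19 and from -0.11 to 0.18 without 1 library. The cause of these changes was not tested. With the BMAd-Pnpla2-/- CR group left out of the fit, 24 of the 56 genes fell with CR in BMAd-Pnpla2+/+ mice, against 9.28% of all genes. Groups of 3 or 4 pools limit every comparison, and the unstranded libraries limit those that BMAd-Pnpla2-/- CR enters.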
